A study of Homo sapiens with 18 samples.

Results

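The loci of 7 transcription factor genes of lung lineages, NKX2-1, FOXA1, FOXA2, GATA6, SOX2, SOX9 and TP63, were examined in ATAC-seq peak lists of PC9, a human lung adenocarcinoma cell line whose growth depends on an EGFR mutation. Every peak within 50 kb of the gene bodies (hg19) was taken, and peaks of the 18 lists that shared at least 1 bp were merged into regions. This gave 44 of the 79483 regions of the series, in windows that covered 1027 kb. The study asks how chromatin structure differs between the parental population, the drug-tolerant cells derived from it, and fractions sorted on Aldefluor, a dye substrate that reports aldehyde dehydrogenase (ALDH) activity. DTP cells were unsorted PC9 cells that survived 8 days of 1 µM erlotinib, an EGFR kinase inhibitor. Their reference, labelled PC9, was the unsorted population in DMSO, the vehicle. ALDH-high and ALDH-low cells were sorted after 12 h in 1 µM erlotinib or in DMSO, which gave 4 more groups. Each of the 6 groups had 3 libraries, a, b and c, and cells of all groups had been cryopreserved and thawed before the assay.

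NKX2-1 is the homeodomain factor that marks lung and alveolar epithelium. FOXA1 and FOXA2 are forkhead factors that open chromatin for other factors, and GATA6 is a zinc finger factor of endoderm and lung epithelium. SOX2 is used in the proximal airway and SOX9 in the distal tips of the growing lung, whereas TP63 marks basal and squamous cells and has an upstream promoter for its long isoforms and an internal one for its short isoforms. An ATAC-seq peak marks DNA that the transposase could reach, so these lists show open sites near the genes and not whether the genes were transcribed.

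Promoter sequences from RefSeq (GRCh38.p14) were matched for 5 of the 7 genes: NKX2-1, FOXA1, GATA6, SOX2 and TP63. Each entry runs from 250 bases before to 50 bases after an annotated start. The hg19 peaks were not placed on these bases, since the builds differ. FOXA1 and TP63 are shown, the entries with the most and the fewest CGs. The merged region over the 5′ end of the FOXA1 gene body held a peak in all 18 libraries, and no region covered that of TP63. Regions over the 5′ ends of SOX2 and SOX9 also held a peak in all 18 libraries, that of GATA6 in 16 and that of NKX2-1 in 10. None covered the 5′ end of FOXA2. A library's own peak may lie in such a region without reaching the 5′ end, which was not checked. Whether CG counts go with open 5′ ends was not tested. Capitals mark every CG. The FOXA1 entry (chr14:37595200-37595499, minus strand) holds 34 CGs, the TP63 entry (chr3:189631139-189631438, plus strand) holds 7, and the median over 35116 RefSeq promoters was 14.
FOXA1: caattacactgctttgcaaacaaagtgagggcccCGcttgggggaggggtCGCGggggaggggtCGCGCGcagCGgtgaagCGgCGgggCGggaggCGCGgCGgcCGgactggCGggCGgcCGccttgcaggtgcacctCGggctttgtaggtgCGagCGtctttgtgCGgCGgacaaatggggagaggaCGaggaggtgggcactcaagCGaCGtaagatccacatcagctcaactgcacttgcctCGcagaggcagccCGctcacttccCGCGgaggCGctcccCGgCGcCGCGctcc
TP63: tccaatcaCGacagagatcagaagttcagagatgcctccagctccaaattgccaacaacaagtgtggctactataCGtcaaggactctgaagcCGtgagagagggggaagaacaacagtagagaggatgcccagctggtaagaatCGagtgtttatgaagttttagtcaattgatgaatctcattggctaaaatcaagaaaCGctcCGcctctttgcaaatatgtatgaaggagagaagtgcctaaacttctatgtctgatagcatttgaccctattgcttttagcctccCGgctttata
The other entries hold 25 CGs (GATA6), 20 (SOX2), and 21 and 11 for the pair of NKX2-1 starts. The second NKX2-1 entry (chr14:36519507-36519806, minus strand) is shown because it holds the forkhead core motif TGTTTAC, in capitals here. The motif was searched on both strands, and 3.42% of all promoter entries hold it. No other entry of the 5 genes does, FOXA1 included.
NKX2-1: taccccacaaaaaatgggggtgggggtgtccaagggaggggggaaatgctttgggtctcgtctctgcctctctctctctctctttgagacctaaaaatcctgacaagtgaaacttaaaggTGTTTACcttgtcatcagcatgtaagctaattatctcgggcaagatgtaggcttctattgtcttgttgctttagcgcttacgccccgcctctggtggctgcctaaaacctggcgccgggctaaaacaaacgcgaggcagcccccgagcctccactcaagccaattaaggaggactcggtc

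Between 26228 and 45244 peaks were deposited per library, each with a score of 70 or more from the authors' peak caller. Lists were longest in DTP cells and shortest in ALDH-low DMSO cells, with means of 44106 ± 1658 and 26343 ± 108 peaks (SD, n = 3). Read depth is unknown, so a peak missing from a list was not called there, which may be due to depth or to closed chromatin. In bulk samples, fewer open cells and a weaker signal in every cell cannot be told apart. Levels are given as score percentiles, the rank of a region's best peak within its own list, where 100 is the highest-scoring peak and "no peak" means not called. The labels do not say whether libraries a, b and c came from separate cultures, so the spread that p-values rest on may be technical.

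Regions are named by gene and by the distance of their midpoint from the 5′ end of the gene body, positive towards and beyond the 3′ end. A region that covers the 5′ end is named by that end, and counts as held where any peak lies in the region. Of the 44 regions, 10 (22.7%) were held by all 18 libraries, where 17.7% of the series' regions were, and 6 (13.6%) by a single library, against 21.2%. Their median width was 1134 bp, and 999 bp over the series. TP63 has by far the longest window, 366 kb, and held 17 of the regions, of which 3 were in all 18 libraries. SOX2 had 7 regions, FOXA1 and SOX9 6 each, NKX2-1 4, GATA6 3 and FOXA2 1. The number in all 18 libraries was 3 at SOX9, 2 at SOX2, 1 each at FOXA1 and GATA6 and 0 at NKX2-1 and FOXA2. Only 5 regions covered the 5′ end of a gene body, at NKX2-1, FOXA1, GATA6, SOX2 and SOX9, while 12 others lay within a body, 11 upstream and 16 downstream. The windows also hold parts of other genes. In RefSeq's gene table (GRCh38.p14) SFTA3 overlaps NKX2-1, SOX2 lies within SOX2-OT, and the next genes beside FOXA1 are MIPOL1 and TTC6 and past the 3′ end of TP63 P3H2. Regions are named by window and were not assigned to a target gene.

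**Figure D1:**
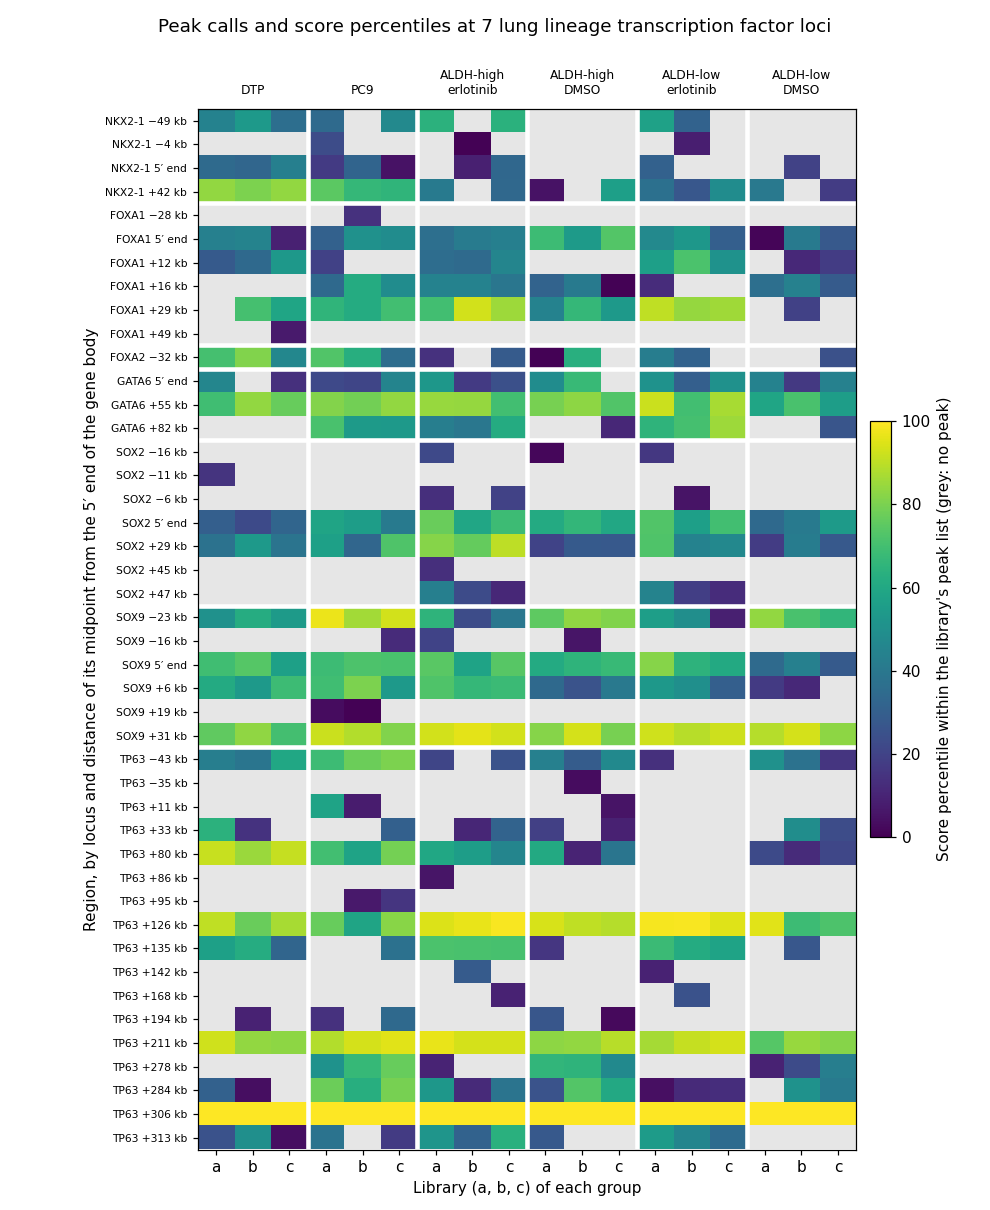
Score percentile of the 44 regions (rows, by locus and midpoint distance from the 5′ end of the gene body) in each of the 18 libraries (columns, by group), with grey for no peak. The TP63 +306 kb region is bright in every library, and 10 regions have no grey cell.

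In the lists as deposited, the region over the 5′ end of NKX2-1 held a peak in all DTP and PC9 libraries and patchily in the sorted fractions. The region (chr14:36988839-36990472) stood at percentiles 34.5, 33.0 and 43.0 in DTP cells and at 17, 32.3 and 4.91 in PC9 cells. Among sorted cells, 2 libraries of ALDH-high erlotinib (8.61 and 33.5), none of ALDH-high DMSO, 1 of ALDH-low erlotinib (31.1) and 1 of ALDH-low DMSO (19.8) held it. DTP lists were longer, which raises a percentile at the same rank, and the ranks of the peak overlapped between DTP and PC9 cells. In lists cut to the same 26225 highest-scoring peaks, 1 DTP library (1.69) and no PC9 library held it. Of the sorted libraries, only ALDH-low DMSO b (19.9) did, so the contrast of unsorted with sorted cells was not seen there.

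The NKX2-1 region with the highest median percentile, 48.6, lay at +42 kb (chr14:36947634-36948760), 36.2 kb past the 3′ end. It ranked at 83.8, 80.1 and 83.8 in DTP cells, against 74.8, 66.6 and 65.5 in PC9 cells. All DTP values were above all PC9 values, and they stayed so in the lists of equal size, with 74.0, 65.9 and 72.1 in DTP and 61.5, 49.8 and 45 in PC9 cells. In the sorted groups it was lower, and missing from 1 library of each group but ALDH-low erlotinib, at 40.8 and 33.6 in ALDH-high erlotinib, 4.81 and 56.3 in ALDH-high DMSO, 36.8, 27.2 and 48.6 in ALDH-low erlotinib and 40.6 and 17.8 in ALDH-low DMSO libraries. The farther upstream region at −49 kb (chr14:37039037-37039874) was held by 7 of 9 erlotinib libraries, against 2 of 9 DMSO libraries, both of them unsorted PC9. Its median percentile was 46.9, with 44.5, 53.9 and 36.0 in DTP and 34.7 and 46.9 in PC9 cells. Sorted erlotinib libraries had 64.2 and 64.0 in ALDH-high and 57.4 and 31.6 in ALDH-low cells. Its exact permutation test over 18 libraries gave p = 0.0400, and 0.121 after adjustment, so it did not pass. The region at −4 kb was held by 3 libraries.

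The region over the 5′ end of FOXA1 was held by every library. Of 2 sites past the 3′ end of the gene, one was held by more erlotinib than DMSO libraries and the other by fewer. The 5′ region (chr14:38063171-38065989) ranked from 1.42 to 73.1, with a median of 43.4. Its highest values were the 68.5, 54.6 and 73.1 of ALDH-high DMSO cells. They exceeded the 36.5, 41.7 and 43.3 of ALDH-high erlotinib cells and also the 1.42, 41.4 and 28.1 of ALDH-low DMSO cells, and the order was the same in lists of equal size.

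The FOXA1 +16 kb region (chr14:38048894-38050077, 7.92 kb past the 3′ end) had no peak in any DTP library, against percentiles of 34.3, 61.7 and 48.6 in PC9 cells. It was therefore lost in DTP cells by the rule used throughout: present in all 3 libraries of one group and in none of the other. In lists of equal size the loss was not called, since only PC9 libraries b and c (42.5 and 18) still held the region. After 12 h of erlotinib it was still held by all 3 ALDH-high libraries (44.5, 44.5 and 39.4), as under DMSO (31.9, 40.9 and 0.640). In ALDH-low cells 1 erlotinib library held it (12.6), against 3 under DMSO (36.7, 44.0 and 28.8). Over 18 libraries 4 of 9 with erlotinib and 9 of 9 with DMSO held it (exact permutation p = 0.0200, adjusted p = 0.0835).

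The neighbouring FOXA1 +12 kb region (chr14:38052283-38053734, 4.27 kb past the 3′ end) was called more often with erlotinib. All 9 erlotinib libraries held it, at 28.2, 34.1 and 53.3 in DTP, 35.8, 34.4 and 45.6 in ALDH-high and 56.6, 71.8 and 50.8 in ALDH-low cells. Of the DMSO libraries, 1 of PC9 (19.2), none of ALDH-high and 2 of ALDH-low (11.5 and 17.9) held it. In lists of equal size 1 DTP library, all 6 sorted erlotinib libraries and ALDH-low DMSO b and c (11.5 and 17.4) kept it. It was gained in ALDH-high cells, and the test over 18 libraries gave an exact permutation p of 0.0100 and an adjusted p of 0.0565. At FOXA1 +29 kb (chr14:38035720-38036918) 12 h of erlotinib gave 69.8, 93.0 and 85.5 in ALDH-high and 90.6, 84.0 and 85.9 in ALDH-low cells. DMSO gave 44.2, 66.7 and 54.0 in ALDH-high cells and a single peak, at 19.5, in ALDH-low cells. In lists of equal size the ALDH-high values overlapped, with erlotinib a at 53.1 and DMSO b at 61.5. DTP cells had 2 peaks, at 70.5 and 58.6, and PC9 cells 65.5, 61.6 and 69.8, which overlap. The other 2 FOXA1 regions were each held by a single library.

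FOXA2, the paralogue of FOXA1, had the sparsest window, with a sole region at −32 kb (chr20:22597484-22598432) and none at its 5′ end. It ranked at 70.7, 81.1 and 46.3 in DTP and at 73.0, 62.8 and 35.7 in PC9 cells, ranges that overlap. Only 7 of the 12 sorted libraries held it, at 14.4 and 28.8 in ALDH-high erlotinib, 0.734 and 63.2 in ALDH-high DMSO, 42.4 and 31.5 in ALDH-low erlotinib and 24.9 in ALDH-low DMSO cells. Over 18 libraries it was held by 7 of 9 with erlotinib and 6 of 9 with DMSO (exact permutation p = 1.00).

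GATA6 had 3 regions with different behaviours. The region over its 5′ end (chr18:19748763-19750572) was called in 16 libraries, at 13.9 to 67.2, and was missing from 1 DTP and 1 ALDH-high DMSO library. The +55 kb region (chr18:19803252-19804342) was held by all 18 libraries, at 55.7 to 92. The +82 kb region (chr18:19830251-19831358), 47.3 kb past the 3′ end, had no peak in DTP cells, against 71.4, 54.4 and 54.0 in PC9 cells, and was thus lost. In the sorted cells more libraries held it with erlotinib than with DMSO, 6 of 6 against 2 of 6. The region ranked at 42.6, 39.8 and 61.7 in ALDH-high erlotinib cells, against a single DMSO peak at 11, and at 65.1, 70.5 and 85.3 in ALDH-low erlotinib cells, against a single DMSO peak at 26.3. Over 18 libraries it was held by 6 of 9 with erlotinib and 5 of 9 with DMSO (exact permutation p = 1.00), and over the 12 sorted ones the exact permutation p was 0.0800. Where a peak had to cover 50% of the region, the DTP loss was not called, with 1 library fewer in DTP than in PC9 cells.

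**Figure D2:**
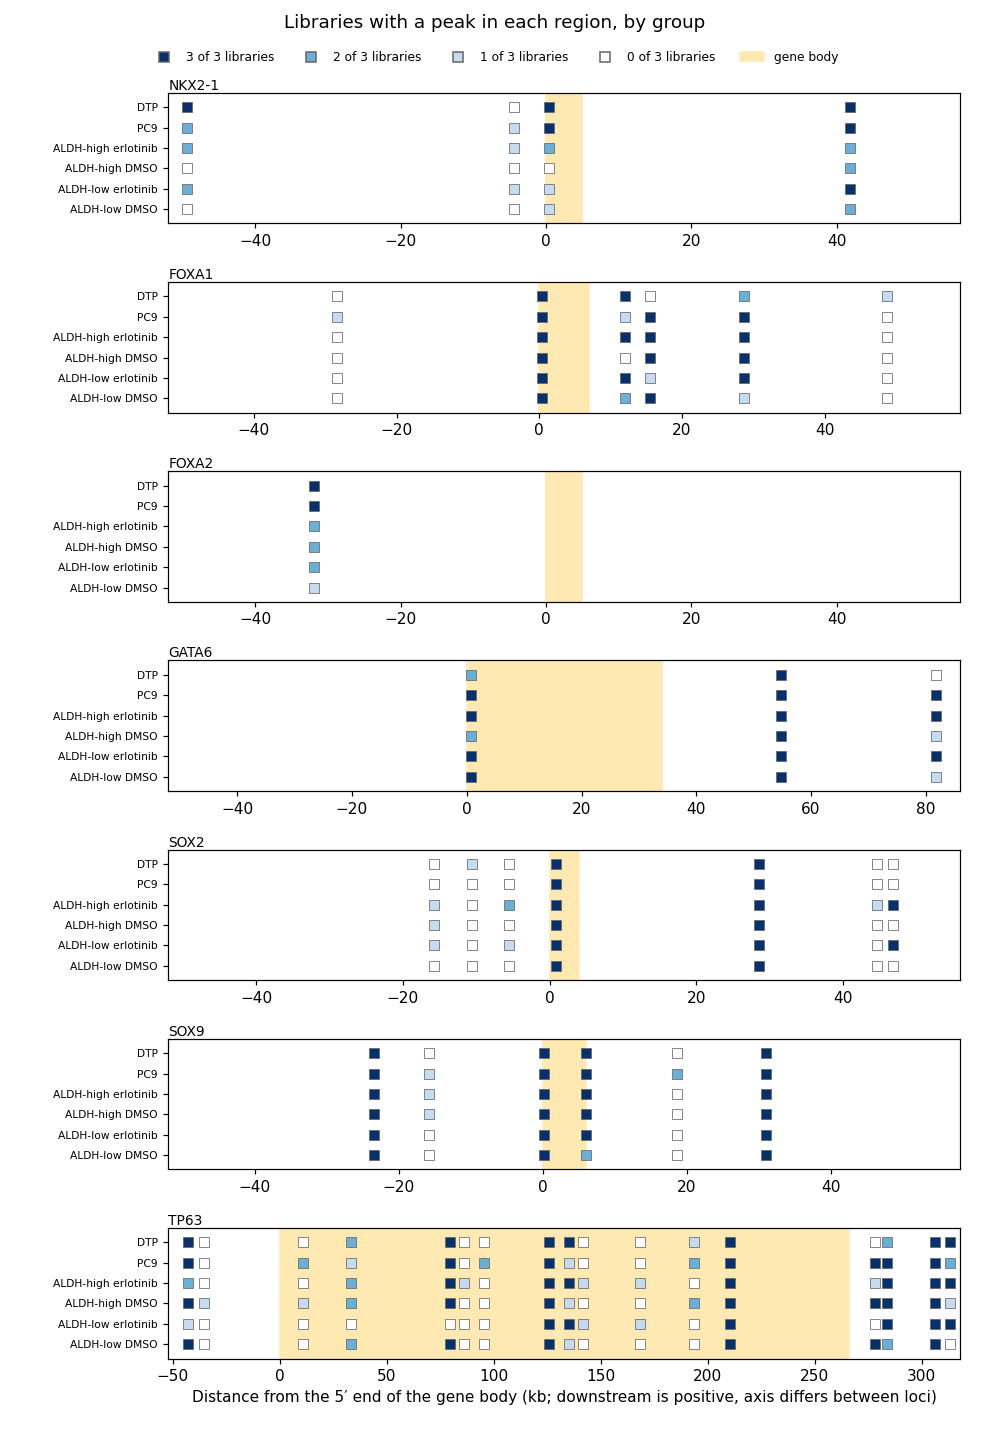
Number of libraries of each group (colour, 0 to 3) with a peak in each region, by midpoint distance in kb from the 5′ end of the gene body (shaded). Axes differ between loci, and DTP cells lack the FOXA1 +16 kb, GATA6 +82 kb and TP63 +278 kb squares that PC9 cells fill.

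SOX2, the proximal airway factor, had a region over its 5′ end that all 18 libraries held (chr3:181428276-181431358) and that was weakest in DTP cells. It ranked at 30.4, 22.4 and 32.7 in DTP cells, against 58.3, 55.6 and 41.4 in PC9 cells. It was at 77.3, 59.1 and 68.7 in ALDH-high erlotinib, 61.3, 66.3 and 59.9 in ALDH-high DMSO, 72.8, 56.4 and 69.9 in ALDH-low erlotinib and 34.0, 41.0 and 54.3 in ALDH-low DMSO cells. The 3 DTP values were below those of the other 15 libraries. In lists of equal size no DTP library kept the peak, and all 15 others did. At +29 kb (chr3:181456991-181458154), also held by all 18 libraries, ALDH-high erlotinib cells stood highest, with 82.0, 76.4 and 90.2, against 20.1, 28.2 and 27.8 under DMSO. ALDH-low cells had 72.3, 44.2 and 46.5 with erlotinib and 17.9, 42.1 and 27.8 with DMSO. All sorted erlotinib values were above all sorted DMSO values, while DTP cells (37.8, 53.9 and 38.3) overlapped PC9 cells (57.0, 32.9 and 72.4). In lists of equal size the ALDH-low values overlapped, since one erlotinib library was at 22.4 and one DMSO library at 42.1.

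The SOX2 +47 kb region (chr3:181475129-181476477), 42.1 kb past the 3′ end, was called in all 6 sorted libraries treated with erlotinib for 12 h and in no other. It ranked at 43.0, 22.7 and 11.3 in ALDH-high and at 44.9, 18.7 and 12.8 in ALDH-low erlotinib cells, and had no peak in DTP, PC9 or any sorted DMSO library. It passed the single-region test over the 12 sorted libraries (6 of 6 against 0 of 6, exact permutation p = 0.00500, adjusted p = 0.0427) and over all 18 (adjusted p = 0.0407). No unsorted library held it, so the 18-library test rests on the same sorted libraries, with the same unadjusted p, and adds no support. All 6 peaks ranked at or below percentile 44.9, and erlotinib lists were longer: in lists of equal size 2 of the 6 remained, too few for a call. Leaving out any single sorted library other than ALDH-high erlotinib b ended the 12-library call, with adjusted p between 0.0492 and 0.0589 over the 12 omissions, and 0.0404 to 0.0456 over the 18-library ones.

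SOX9, the distal tip factor, had a region over its 5′ end that all 18 libraries held (chr17:70115834-70118539), at 28.2 to 81.9. ALDH-low DMSO cells were lowest there, with 34.4, 43.7 and 28.2. In those cells erlotinib gave 81.9, 64.7 and 60.6, and ALDH-high DMSO cells had 61.1, 65.1 and 67.5, so neither group overlapped them. The −23 kb region (chr17:70092991-70094131) ranked lower in every erlotinib library than in any DMSO library. Its percentiles were 50.6, 61.8 and 54.4 in DTP cells, against 96.9, 86.1 and 93.2 in PC9 cells. They were 64.9, 23.3 and 39.5 in ALDH-high erlotinib, against 75.0, 83.5 and 81.2 in ALDH-high DMSO cells. ALDH-low cells had 56.2, 49.5 and 8.84 with erlotinib and 83.6, 71.2 and 66.0 with DMSO. The closest erlotinib and DMSO libraries were 64.9 and 66.0. Of the 14070 regions held by all 18 libraries, 0.547% were lower in all 9 erlotinib libraries in this way, and 1.59% in lists of equal size, where the SOX9 region also separated and 2 erlotinib libraries no longer held it. None of the 10 window regions held by all 18 libraries was higher in all 9 erlotinib libraries (1.31% of the series' regions, and 0.697% in lists of equal size). This is a description, with no test. At +31 kb (chr17:70146952-70149035) SOX9 had a strong region in all 18 libraries, at 70 to 96, and at +6 kb (chr17:70122311-70123747) one in 17, from 11.5 to 80.3. The +6 kb region stood at 72.4, 66.7 and 68.1 in ALDH-high erlotinib cells, above 34.3, 25.7 and 40.4 in ALDH-high DMSO and above 53.5, 49.8 and 30.1 in ALDH-low erlotinib cells.

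TP63, the basal and squamous factor, held the strongest region of all 7 windows, and its 5′ end was never called. The nearest region to the 5′ end was at +11 kb, in 3 libraries. The +306 kb region (chr3:189653670-189656464), 38.7 kb past the 3′ end, was among the 28 highest-scoring peaks of every list. Its rank was 28, 27 and 10 in DTP, 1, 20 and 1 in PC9, 2, 2 and 9 in ALDH-high erlotinib, 1, 7 and 4 in ALDH-high DMSO, 3, 28 and 1 in ALDH-low erlotinib and 1, 7 and 2 in ALDH-low DMSO cells. It was the highest-scoring peak of the whole list in 5 libraries and within the 10 highest in 14, with a median rank of 3.50. Inside the gene body, +126 kb (chr3:189473907-189475433) and +211 kb (chr3:189558808-189560443) were held by all 18 libraries, at 58.4 to 99 and 73.8 to 96.8. At +126 kb ALDH-high cells had 94.7, 96.8 and 99 with erlotinib, against 93.9, 90.6 and 88.9 with DMSO. In lists of equal size these overlapped, with erlotinib a at 91.8 and DMSO a at 92.3. ALDH-low cells had 98.8, 98.9 and 95.3 with erlotinib, against 95.6, 68.7 and 72.1 with DMSO, which overlap. DTP cells (90.5, 77.2 and 87.1) overlapped PC9 cells (76.7, 58.4 and 82.1). At +211 kb ALDH-high erlotinib cells (96.8, 93.7 and 93.5) lay above ALDH-high DMSO cells (83.0, 83.7 and 89.4).

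The TP63 +278 kb region (chr3:189625888-189628123), 10.9 kb past the 3′ end, was held less often with erlotinib than with DMSO. All 9 DMSO libraries held it, and 1 of 9 erlotinib libraries did. DTP cells had no peak, against 50.8, 66.9 and 76.7 in PC9 cells. ALDH-high erlotinib cells had 1 peak, at 9.90, against 65.9, 65.0 and 47.6 in ALDH-high DMSO cells. ALDH-low erlotinib cells had none, against 9.63, 23 and 42.7 in ALDH-low DMSO cells. It was thus lost in DTP and in ALDH-low cells. The ALDH-low loss was not called with a score of at least 100, where 1 DMSO library held the region, or with 50% cover, where none did, and the DTP loss was called in both. The test over 18 libraries gave an exact permutation p of 0.00100 and an adjusted p of 0.0196, and over the 12 sorted libraries 0.0200 and 0.0601. The adjusted p over 18 libraries was 0.0128 in lists of equal size and 0.0900 where a peak had to cover 50% of the region. It was 0.0698 when all regions that vary were counted in the adjustment, and it stayed between 0.0147 and 0.0219 with any library left out.

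The TP63 +313 kb region (chr3:189661594-189663078) was held more often with erlotinib, by 9 of 9 erlotinib libraries, against 3 of 9 DMSO libraries (exact permutation p = 0.0100, adjusted p = 0.0565). It ranked at 25.0, 49.7 and 3.69 in DTP, 52.2, 31.4 and 63.3 in ALDH-high erlotinib and 54.8, 45.5 and 34.9 in ALDH-low erlotinib cells. PC9 had 37.9 and 17.3, ALDH-high DMSO 28.0, and ALDH-low DMSO no peak, so it was gained in ALDH-low cells. In lists of equal size every sorted erlotinib library kept it, but of the others only DTP b (13.9), PC9 a (4.96) and ALDH-high DMSO a (9.94) did. The +135 kb region (chr3:189483738-189484966) had the same counts in the deposited lists, 9 of 9 against 3 of 9 (exact permutation p = 0.0160, adjusted p = 0.0835). It stood at 71.5, 71.3 and 70.8 in ALDH-high and 68.2, 61.6 and 57.9 in ALDH-low erlotinib cells, and at 56.7, 61.8 and 32.6 in DTP cells. The 3 DMSO peaks were at 37.2 (PC9), 15.9 (ALDH-high) and 27.0 (ALDH-low). In lists of equal size DTP a and b (30.3 and 34.6), every sorted erlotinib library and ALDH-low DMSO b (27.0) kept the region.

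The TP63 +80 kb region (chr3:189428113-189429156), inside the gene body, separated the ALDH fractions under erlotinib. ALDH-high erlotinib cells had 59.5, 55.8 and 45.4, and ALDH-low erlotinib cells no peak. Under DMSO both fractions held it, at 60.8, 9.96 and 38.7 in ALDH-high and 22.5, 12.4 and 21.2 in ALDH-low cells. It was thus lost with erlotinib in ALDH-low cells and held in ALDH-high cells. It was highest in DTP cells, at 91.5, 85.0 and 91.3, against 69.7, 57.9 and 79.2 in PC9 cells. Because the ALDH-low DMSO peaks scored low, none of them reached a score of 100, and with that threshold the loss in ALDH-low cells was not called, while the difference between the fractions under erlotinib was. The −43 kb region (chr3:189305809-189306986) was in 15 libraries and highest in PC9 cells, at 68.6, 77.7 and 80.4, against 42.6, 38.8 and 59.4 in DTP cells. Of the other regions, +284 kb was held by 16 libraries, at 77.5, 62.8 and 79.5 in PC9 and at 31.0 and 3.54 in DTP cells. In lists of equal size all 3 PC9 libraries (65.7, 44.1 and 67.4) and no DTP library held it. The +33 kb region was held by 9 libraries, and the remaining 6 by 5 or fewer.

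**Figure D3:**
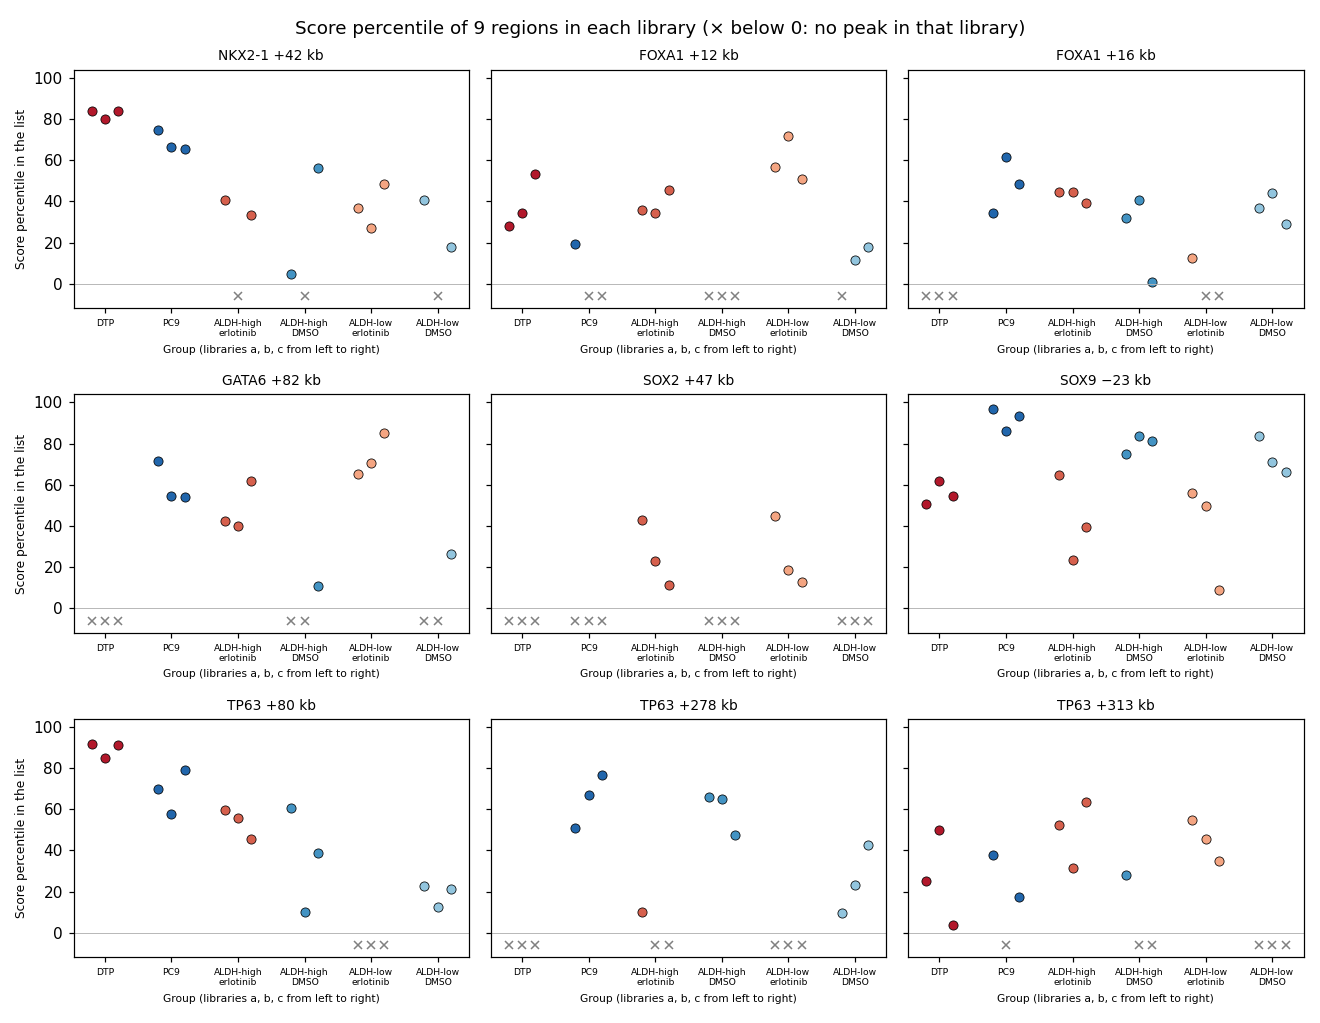
Score percentile within the library's list (vertical axis) of 9 regions, by group, with libraries a, b and c as points and crosses below 0 for no peak. The 7 regions gained or lost in any comparison and those whose rank separated DTP from PC9 cells are shown, and TP63 +278 kb has 1 erlotinib point while all 9 DMSO libraries have one.

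DTP cells lost 3 regions of the windows relative to PC9 cells and gained none. The lost ones were FOXA1 +16 kb, GATA6 +82 kb and TP63 +278 kb, out of 36 regions that either group held (8.33%). Over the series 3.68% of regions were lost and 6.75% gained. In lists of equal size 4 window regions were lost in DTP cells. They were GATA6 +82 kb, TP63 +278 kb, TP63 +284 kb and the 5′ end of SOX2, while FOXA1 +16 kb was not called. More broadly, 13 of the 36 regions (36.1%) were held by fewer DTP than PC9 libraries and 7 (19.4%) by more, whereas 24.7% and 33.5% of the series' regions did so. Without PC9 library c the lost regions numbered 5, and 1 was gained without PC9 library a or c. By rank in lists of equal size, TP63 +80 kb and NKX2-1 +42 kb were higher in DTP cells among 10 regions that all 6 libraries held (17.6% of the series' were), and SOX9 −23 kb was lower (17.3%).

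In ALDH-high cells, erlotinib gained SOX2 +47 kb and FOXA1 +12 kb among 39 regions and lost none. The series' shares were 4.52% gained and 0.998% lost. The gained regions were 4 without ALDH-high erlotinib b or without ALDH-high DMSO a, and 1 was lost without ALDH-high erlotinib a or ALDH-high DMSO b. In ALDH-low cells erlotinib gained SOX2 +47 kb and TP63 +313 kb among 33 regions (series share 6.82%) and lost TP63 +80 kb and TP63 +278 kb (series share 0.887%). There the gained regions were 4 without ALDH-low DMSO b, and the lost ones 4 without ALDH-low erlotinib a. SOX2 +47 kb was the sole region gained in both fractions, and none was lost in both, where 1.55% and 0.160% of the series' regions were. By rank in lists of equal size, rank was compared only at regions that all 6 libraries kept there. SOX9 +6 kb and TP63 +211 kb were higher with erlotinib in ALDH-high cells (series share 12.0%), FOXA1's 5′ end was lower (11.9%), and SOX9's 5′ end was higher in ALDH-low cells (13.6%). The deposited lists separated more regions. In ALDH-high cells SOX2 +29 kb, FOXA1 +29 kb and TP63 +126 kb were also higher and SOX9 −23 kb lower. In ALDH-low cells SOX2 +29 kb, SOX2's 5′ end and TP63 +211 kb were also higher and SOX9 −23 kb lower.

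ALDH-high and ALDH-low cells differed at 1 of 36 regions under erlotinib, TP63 +80 kb, which only the ALDH-high libraries held (series share 0.893%, and 0.446% in the other direction, where the windows had none), and at 0 of 31 under DMSO (1.28% gained and 0.140% lost over the series). Under erlotinib 10 regions were held by more ALDH-high than ALDH-low libraries and 1 by fewer, 27.8% and 2.78%, against 28.4% and 21.3% of the series' regions. A second region was gained without ALDH-high erlotinib a or ALDH-low erlotinib a. Under DMSO, 1 region was gained without ALDH-high DMSO b or ALDH-low DMSO b, and 1 was lost without ALDH-low DMSO a. By rank in lists of equal size, the 5′ ends of FOXA1 and SOX9 were higher in ALDH-high cells under DMSO (5.69%) and no region lower (5.75%). Under erlotinib, in the same lists, SOX2 +29 kb, TP63 +135 kb and SOX9 +6 kb were higher (8.31%) and FOXA1 +12 kb and GATA6 +82 kb lower (8.37%).

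Single regions could reach p under 0.05 only when groups were combined. The exact permutation test exchanged labels within pairs of groups, with Benjamini-Hochberg adjustment over the 18300 regions of the series that could pass with 18 libraries, 11 of them in the windows. SOX2 +47 kb was held more often with erlotinib, in the sorted cells alone (series share 10.4%), and TP63 +278 kb less often (1.92%). Over the 12 sorted libraries 5 window regions could pass and SOX2 +47 kb did (10.6%), and none was held less often (1.09%; 1 window region at an unadjusted p under 0.05). When all 65266 varying regions entered the adjustment, a setting added after seeing the data, neither region passed (0.145 for SOX2 +47 kb). For ALDH-high against ALDH-low over 12 libraries, 0 of 2 window regions passed by this test, with 0 at an unadjusted p under 0.05, and the series share was 0% of 4471.

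DTP lists were longer than PC9 lists and yet had fewer peaks at the 7 loci. DTP libraries had 24, 24 and 23 peaks in the windows, against 31, 27 and 30 in PC9 libraries, so the groups did not overlap (difference −5.67, exact permutation p = 0.100, the smallest that 3 against 3 libraries allow). Per 10000 peaks of the list this was 5.37 ± 0.302 in DTP and 7.25 ± 0.443 in PC9 cells (SD, n = 3 each). ALDH-high libraries had 31, 25 and 29 peaks with erlotinib and 25, 21 and 22 with DMSO (difference 5.67, exact permutation p = 0.200). ALDH-low libraries had 27, 25 and 20 with erlotinib and 17, 22 and 21 with DMSO (difference 4.00, exact permutation p = 0.300). Per 10000 peaks the sorted means were 7.35 ± 0.242 and 7.25 ± 0.349 in ALDH-high and 6.54 ± 0.369 and 7.59 ± 1.03 in ALDH-low cells, with erlotinib and with DMSO in that order. The difference between ALDH-high and ALDH-low cells was 4.33 peaks under erlotinib (exact permutation p = 0.300) and 2.67 under DMSO (exact permutation p = 0.5).

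**Figure D4:**
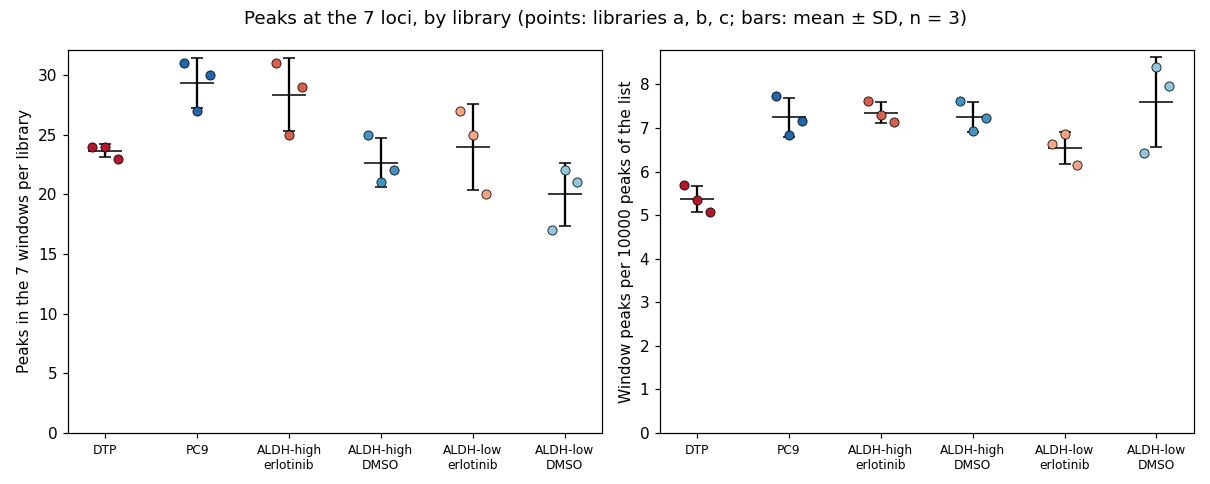
Peaks in the 7 windows per library (left) and the same per 10000 peaks of the library's list (right), by group, with points for libraries a, b and c and bars for the mean ± SD (n = 3). DTP libraries have 23 to 24 peaks and PC9 libraries 27 to 31, and DTP cells are lowest per 10000 peaks.

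Over all 18 libraries erlotinib and DMSO differed by 1.33 window peaks (exact permutation p = 0.485), and per 10000 peaks of the list by −0.945 (exact permutation p = 0.0140), while the lists themselves were 7074 peaks longer with erlotinib. In lists of equal size the difference in window peaks was −0.889 (exact permutation p = 0.473). Within the pairs the difference per 10000 peaks was −1.88 for DTP against PC9 cells, 0.0946 in ALDH-high and −1.05 in ALDH-low cells. By locus, SOX2 had 3, 2 and 2 peaks in DTP and 2 in each PC9 library, 6, 3 and 4 with erlotinib and 3, 2 and 2 with DMSO in ALDH-high cells, and 4, 4 and 3 with erlotinib and 2 in each DMSO library in ALDH-low cells. The SOX2 difference was 1.33 peaks (exact permutation p = 0.00500, not adjusted over the 7 windows) and −0.111 in lists of equal size (exact permutation p = 1.00). TP63 had 9, 10 and 7 peaks in DTP, against 11, 10 and 13 in PC9 cells, and over 18 libraries differed by −1.11 (exact permutation p = 0.157), or −1.56 in lists of equal size (exact permutation p = 0.0255, also not adjusted over the 7 windows). For the other 5 windows the exact permutation p over 18 libraries was at least 0.102.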

How the data were processed

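Open chromatin was measured by ATAC-seq in 18 libraries of PC9 cells in 6 groups of 3, taken from the labels. BWA, MACS 1.4.2 and hg19 are named, per the submitters' processing notes. Steps not given in the sources used here include trimming, duplicate removal, read shifting and calling parameters. Each library has its own deposited peak list, with a score per peak from the authors' peak caller, on a scale that is not stated. Scores only ranked or filtered peaks within a list. Read depth is unknown, and lists hold 26228 to 45244 peaks.

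Peaks on chromosomes 1 to 22 and X (3 to 7 per library lay elsewhere) were merged where they shared at least 1 bp. Windows were the gene bodies, to the nearest kb, with 50 kb on either side. Other lung lineage genes were not placed, since hg19 positions were at hand for these 7 alone. The members and lists were chosen with earlier results of these data known. Named regions were those in all 18 libraries, gained or lost, past a test, in or over a gene body, or highest in their locus, and a few more outside this rule were named after their values were seen (NKX2-1 −49 kb and −4 kb, TP63 −43 kb and +284 kb). The separation of all 9 erlotinib from all 9 DMSO libraries by rank was also added after the data were seen.

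Regions were tested by exact two-sided permutation of labels within pairs of groups (8000 assignments for 18 libraries, 400 for 12), with Benjamini-Hochberg adjustment over all regions of the series whose smallest possible p is at most 0.05. On simulated data with known changes in 200 of 79483 regions, the test gave their direction, but none passed after adjustment. In the real data 1895 regions passed as higher and 351 as lower over 18 libraries. The simulated setting therefore differs, and it does not measure how many true changes were missed here. Regions that miss the adjusted threshold may still differ. Python 3.11.15, numpy 2.4.6, scipy 1.17.1 and pandas 2.3.3 were used. Alternatives were a score of at least 100, peaks covering 50% of a region, lists of equal size (26225 peaks), windows of 20 or 100 kb, each library left out, a replicate block, and adjustment over all varying regions.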

Additional observations from a re-analysis of the deposited data

Results flagged for a closer look

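The number of window peaks was lower in DTP than in PC9 cells and higher with erlotinib than with DMSO in sorted cells, in the lists as deposited. DTP libraries had 5.67 fewer window peaks than PC9 libraries, and ALDH-high erlotinib libraries 5.67 more than ALDH-high DMSO libraries. The difference of these differences was −11.3 peaks (exact permutation p = 0.00500 over 400 assignments, the smallest they allow), which marked it for a closer look. Labels were exchanged within each pair, so the null of these p-values is no change in either pair, and they do not test whether the changes were equal. Against the response of ALDH-low cells, 4.00 more peaks with erlotinib, the difference of differences was −9.67 (exact permutation p = 0.05). The fractions differed from each other by −1.67 (ALDH-low minus ALDH-high, exact permutation p = 0.750). The pairs also differ in sorting and in the time on erlotinib, 8 days or 12 h, which cannot be told apart. List lengths moved with the result, by 3663 more peaks in DTP than in PC9 cells and 7332 more with erlotinib in ALDH-high cells, so the comparison was repeated in lists of equal size. There the differences were −4.00 for DTP against PC9, 2.33 for ALDH-high and −1 for ALDH-low cells. The difference of differences was then −6.33 against ALDH-high (exact permutation p = 0.0100) and −3.00 against ALDH-low cells (exact permutation p = 0.230), a setting added after the data were seen.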

How the results depend on the processing

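Counts of window regions were small and moved with the processing; where no cause is given, the cause was not tested. With a score of at least 100, gained regions were 6 in ALDH-low cells, and 1 (DMSO) and 2 (erlotinib) in ALDH-high against ALDH-low cells, lost regions were 1 in each fraction, and regions higher with erlotinib were 2 over 18 and 3 over 12 libraries. With 50% cover, 1 region was gained in DTP, 1 lost in ALDH-low cells, and over 18 libraries 2 were higher and 0 lower. In lists of equal size ALDH-low cells gained 1 and lost 4, ALDH-high cells lost 2, ALDH-high against ALDH-low cells gained 2 under erlotinib, 2 were lower over 18 libraries, and over 12 libraries 0 were higher and 2 lower. Windows of 20 kb, which hold fewer regions, gave 0 gained regions in the ALDH-low and 1 in the ALDH-high fraction, and 0 higher over 18 and over 12 libraries. Adjustment over all varying regions gave 0 higher and 0 lower over 18 libraries and 0 higher over 12. The difference in window peaks reversed in lists of equal size to −1 (erlotinib, ALDH-low cells), −2.00 (ALDH-high against ALDH-low cells, DMSO) and −0.889 (18 libraries), and with windows of 20 kb to −0.667 (18 libraries).

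With each library left out, DTP gained 0 to 1 and lost 3 to 5, ALDH-low cells gained 2 to 4 and lost 2 to 4, and ALDH-high cells gained 2 to 4 and lost 0 to 1. ALDH-high against ALDH-low cells gained 0 to 1 and lost 0 to 1 under DMSO and gained 1 to 2 under erlotinib. Over 18 libraries 1 to 3 were higher (3 without PC9 a or c, ALDH-low DMSO b or ALDH-high DMSO a, 2 without ALDH-low DMSO c) and 1 to 2 lower (2 without ALDH-low erlotinib a), and over 12 libraries 0 to 1 higher. The other counts stayed within 1.5 times, and no window total crossed the threshold, but totals moved in size: with windows of 20 kb to 0 in ALDH-low cells and 1.00 under DMSO for ALDH-high against ALDH-low cells, in lists of equal size to 2.33 in ALDH-high cells, and with windows of 100 kb to 2.89 over 18 libraries.

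Letters did not pair the libraries: same-letter correlations of deviations ranged from −0.0102 to 0.0125. With a replicate block, 0 regions were higher and 0 lower over 18 libraries (adjusted p = 0.0557 for SOX2 +47 kb and 0.0505 for TP63 +278 kb, exact permutation within letters), and over 12 libraries 1 was higher (0.0365). With a score of at least 100 or lists of equal size, SOX2 +47 kb was in too few libraries to be tested. Depth is unknown, so low-ranked regions may be missed in short lists.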

Other observations

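Just outside the windows, the nearest region below the TP63 window lay 7.98 kb away and was held by 17 of 18 libraries (chr3:189289736-189291017). The nearest one above it, 0.916 kb away, was held by 1 library. The nearest regions of the other 6 windows were held by 1 to 3 libraries, except one 16.7 kb above the SOX2 window (chr3:181499678-181500963), which 9 libraries held: 1 of DTP, 2 of PC9, 3 of ALDH-high erlotinib and 1 each of ALDH-high DMSO, ALDH-low erlotinib and ALDH-low DMSO cells.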
